A study of Mus musculus with 12 samples.

Results

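The genes described here are 35 genes of the antioxidant response led by the transcription factor NRF2, with the glutathione and thioredoxin systems it controls. They were taken by name from a list of pathway genes, and each name matched 1 of the 55604 genes counted. The list was chosen with earlier results of these data known. Its counts are therefore set beside those of all genes as a description, not as a test of the list. The values come from RNA sequencing of mouse macrophages, and 33 of the 35 genes had enough reads to be tested among 16406 genes in all. Gstp1 and Gsta4 did not. There were 3 groups of 4 libraries, all of C57BL/6 bone marrow-derived macrophages differentiated from marrow in M-CSF (20 ng/ml), a macrophage growth factor, and collected on day 7. Macrophages alone received no corpses. The second group received corpses of control cells of B16-F10, a mouse melanoma line that the treatment protocol spells B16F-F10, at a ratio given as 1 to 5. The third received corpses of the same line overexpressing STC1, stanniocalcin 1, a secreted glycoprotein, at the same ratio. Corpses stayed for 20 hours before those not bound were removed by washing, and the design text gives independent experiments for each condition. How the corpses were made, and whether the STC1 line was 1 clone, are not given in the sources used here.

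NRF2, encoded by Nfe2l2, is held at a low level by KEAP1, which marks it for degradation, and oxidants or electrophiles that modify KEAP1 let it build up. In the nucleus it pairs with small MAF proteins on antioxidant response elements, where the repressor BACH1 competes for the same sites until heme releases it. Its targets supply cystine and make glutathione, reduce thioredoxin and peroxiredoxins, and conjugate electrophiles. Macrophages that take up dead cells meet heme, iron, oxidized lipids and the oxidants made in their own phagosomes. Because NRF2 activity is set largely at the protein level, the transcript of Nfe2l2 itself is not a measure of it.

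The core of the antioxidant response element, TGACNNNGC, or GCNNNGTCA when it lies on the opposite strand, was searched for on both strands of the RefSeq promoter windows of build GRCm38.p6, which run from 250 bases before to 50 bases after a transcript start. Of the 29 genes with an entry, 9 held the core (31%), against 3781 of 27025 genes in the whole table (14%). Those 9 were Nfe2l2, Mafg, Gclm, Prdx1, Txnrd1, Sod1, Gstm5, Mgst1 and Srxn1. The 6 below are shown because they put the letters beside genes whose values follow. Each is given 5′ to 3′ on the strand of its gene, with the core in capitals.
Nfe2l2: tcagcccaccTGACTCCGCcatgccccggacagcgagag
Mafg: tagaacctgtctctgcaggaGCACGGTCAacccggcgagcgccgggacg
Gclm: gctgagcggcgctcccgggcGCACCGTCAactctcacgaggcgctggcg
Prdx1: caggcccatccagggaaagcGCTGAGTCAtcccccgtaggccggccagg
Txnrd1: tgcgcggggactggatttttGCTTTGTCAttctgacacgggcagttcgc
Sod1: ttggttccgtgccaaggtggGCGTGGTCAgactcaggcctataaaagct
The Nfe2l2 stretch lies at chr2:75704875-75704913 on the minus strand, with its core 240 bases before the start and on the gene's own strand. The other 5 cores read on the opposite strand. Those of Gclm (chr3:122245403-122245451, plus strand) and Prdx1 (chr4:116685446-116685494, plus strand) begin 134 and 133 bases before the start. The core of Mafg (chr11:120633741-120633789, minus strand) begins 222 bases before its start and that of Sod1 (chr16:90220686-90220734, plus strand) 56 bases before. The core of Txnrd1 (chr10:82859094-82859142, plus strand) begins 92 bases before a start that lies inside the longer gene annotated by GENCODE. The cores of Gstm5, Mgst1 and Srxn1 lie 42 and 56 bases before and 29 bases into the RefSeq transcript, next to or within annotated exons. A match of these letters is not evidence of binding, and a window without them says nothing about the factor.

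**Figure D1:**
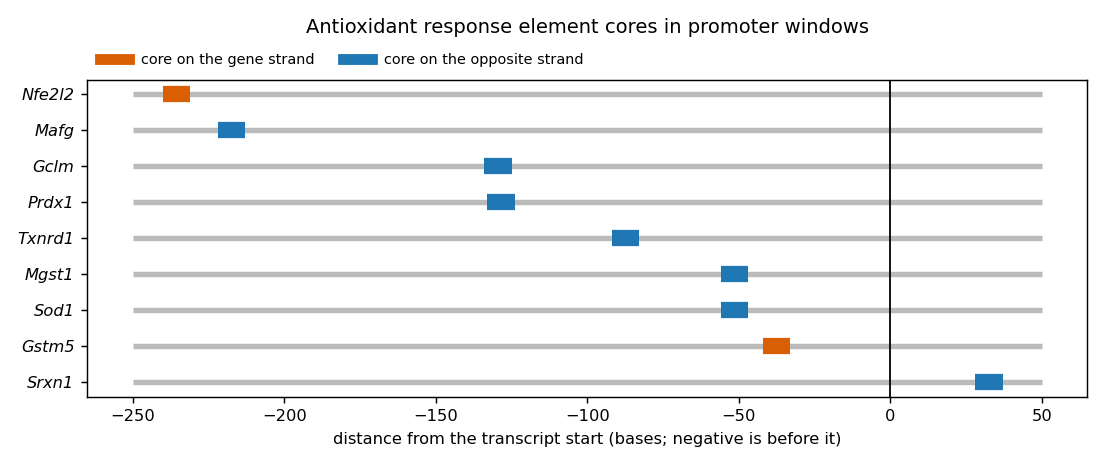
Position of the antioxidant response element core in the promoter windows of the 9 genes that held one. The x axis is the distance in bases from the RefSeq transcript start, the grey line is the window from 250 bases before to 50 bases after it, and colored blocks are cores on the gene's strand (Nfe2l2 and Gstm5) or on the opposite strand (the other 7).

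Libraries held 28488441 to 39981074 counts assigned to genes, so that a count of 0 allows up to 0.105 CPM (counts scaled to a common library size with TMM factors) in the shallowest and 0.0750 CPM in the deepest. This limit covers counting error only. Within the groups, libraries 1 and 2 and libraries 3 and 4 resembled each other more than the pairs across did, except libraries 1 and 2 with control corpses, and no label gives a reason. The share of reads not aligned was 14.6% and 14.4% in STC1 libraries 1 and 2, 17.8% and 17.5% in libraries 3 and 4, and 10.8% to 14.0% in the other groups. All 10 macrophage markers had enough reads to be tested. Their summed level was 16210 to 17090 CPM in macrophages alone, 13740 to 15410 CPM with control corpses and 13610 to 14740 CPM with STC1 corpses. Lyz2 took most of each sum, with means of 11190, 9157 and 8683 CPM. Csf1r, the receptor of M-CSF, had means of 1942, 1618 and 1641 CPM. Of the 10, 3 were higher and 7 lower with each kind of corpse than in macrophages alone. The overexpressed gene was barely visible. Mouse Stc1 had 0, 2, 0 and 3 counts in macrophages alone and 3, 0, 2 and 0 with control corpses. With STC1 corpses it had 2, 3, 7 and 5 counts, which are too few to check a label.

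RNA of melanocyte markers was present in the libraries that received corpses. Of 15 melanocyte markers, 11 were tested, 9 were higher and 1 was lower than in macrophages alone in each comparison, and 6 were lower with STC1 than with control corpses. The whole list summed to 168 to 175 CPM, 128 to 132 CPM and 121 to 124 CPM in the 3 groups, because Mitf, which macrophages also express, took most of it. The 12 markers below 1 CPM in macrophages alone, a subset chosen after the values were seen, summed to 0.863 to 0.987 CPM there, 10.9 to 14.5 CPM with control corpses and 4.40 to 5.51 CPM with STC1 corpses. Tyr, the defining enzyme of pigment synthesis, was at 0 in all 4 libraries of macrophages alone. The part of tumor RNA in the antioxidant genes was not tested. Neutrophil markers, of which 5 of 10 were tested, summed to 179 to 187 CPM in macrophages alone, 91.9 to 97.3 CPM with control corpses and 84.8 to 91.4 CPM with STC1 corpses. Mmp8 took most of each sum, with means of 167, 90.3 and 83.8 CPM. With control corpses the other tested markers fell between 1.82-fold (S100a8) and 8.16-fold (S100a9). The part of neutrophil RNA in the antioxidant genes was not tested either. In such bulk libraries fewer cells of a type and less RNA per cell cannot be told apart.

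Most of the 33 tested antioxidant genes had higher TMM-scaled levels in macrophages with corpses, while Nfe2l2 itself fell. With control corpses 21 of 33 genes were higher than in macrophages alone, where 19.7% of all tested genes were, and 8 were lower, against 20.5%. With STC1 corpses 23 were higher, against 21.4% of all genes, and 3 were lower, against 22.4%. This does not extend to most other genes of the same pathways. Of 84 of those tested, 26 were higher and 20 lower with control corpses, and 32 and 16 with STC1 corpses. The median log2 fold change of the 33 was 0.17 with control corpses (range −0.80 to 0.68) and 0.25 with STC1 corpses (range −0.50 to 0.99), where the medians of all genes were −0.001 and −0.027. These calls are from edgeR's quasi-likelihood test at a Benjamini-Hochberg adjusted p below 0.05 over all 16406 genes. The comparisons share the libraries of macrophages alone, so that they are not independent of each other. Log2 fold changes are given ± SE, and levels as mean ± SD with n = 4.

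Most changes were modest. A change of at least 1.5-fold with control corpses was found for 6 genes upward (Gsr, Prdx6, Gpx3, Gstm1, Gstm5 and Gsto1), against 2.61% of all genes, and for Slc7a11 downward, against 4.2%. With STC1 corpses 7 genes rose that far (Gsr, Prdx6, Gpx1, Gpx3, Gstm1, Gsto1 and Mgst1), against 2.93%. None of the 33 fell that far with STC1 corpses, against 5.65% of all genes, and edgeR at an unadjusted p below 0.05 and DESeq2 also gave 0. The summed level of the 35 genes was 5389 to 5641 CPM in macrophages alone, 5764 to 5917 CPM with control corpses and 6375 to 6626 CPM with STC1 corpses, 3 ranges that did not overlap. Prdx1 alone made up a large part of this sum, with means of 1989, 1847 and 2055 CPM, and it was lower with control corpses.

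**Figure D2:**
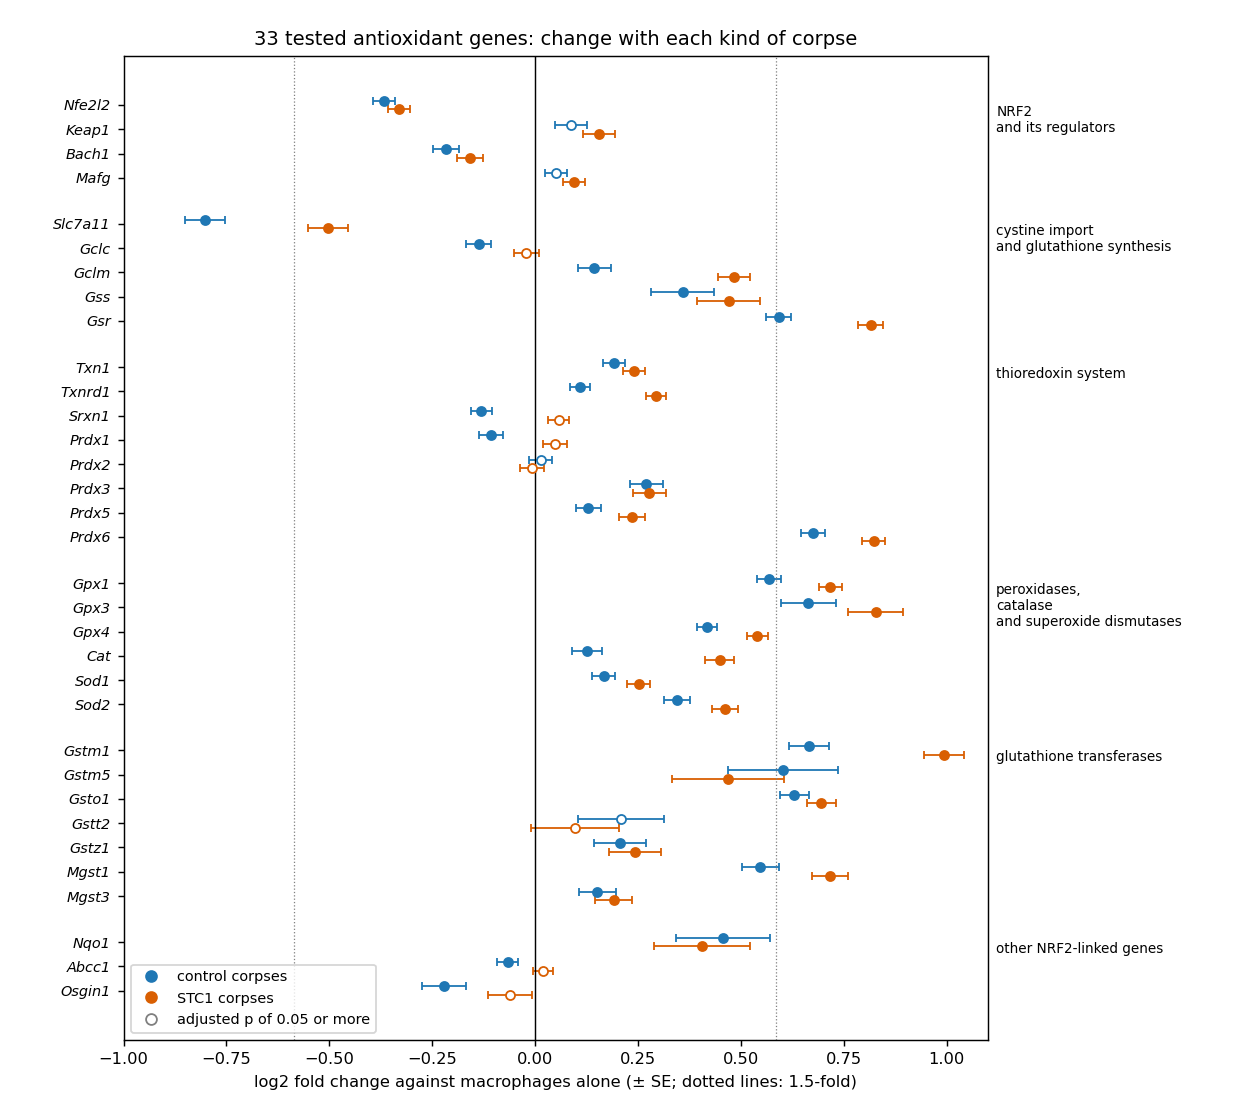
Change of the 33 tested genes with control corpses (blue) and STC1 corpses (orange) against macrophages alone, as log2 fold change ± SE on the x axis, with genes on the y axis grouped by role. Filled points have an adjusted p below 0.05, and Slc7a11 and Gstm1 mark the lowest and highest values of the 2 comparisons (−0.80 and 0.99).

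Between the corpse groups, the genes that passed the test all differed in 1 direction. With STC1 corpses 16 of 33 genes were higher than with control corpses, where 3.33% of all genes were, and 0 were lower, where 2.12% were. Unadjusted, 19 were higher and 0 lower at p below 0.05 with edgeR, and DESeq2 called 17 higher and 0 lower after adjustment. None of the 33 reached 1.5-fold, as 0.0549% of all genes did upward and 0.226% downward, and unadjusted p-values and DESeq2 also gave 0. The median log2 difference was 0.11 (range −0.13 to 0.34) and that of all genes −0.0064. Of the 9 genes with the core in a promoter window, 5 were higher with STC1 than with control corpses (Gclm, Srxn1, Txnrd1, Prdx1 and Mgst1), as were 7 of the 19 tested genes with a window and no core.

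Sorted by all 3 comparisons, 11 genes were higher with both kinds of corpse and higher again with STC1 than with control corpses: Cat, Gclm, Gpx1, Gpx4, Gsr, Gstm1, Mgst1, Prdx5, Prdx6, Sod2 and Txnrd1. Another 10 were higher with both kinds and not separated between them. Abcc1, Gclc, Prdx1 and Srxn1 were lower with control corpses, not separated from macrophages alone with STC1 corpses, and higher with STC1 than with control corpses. Slc7a11 was lower with both and less so with STC1 corpses. Nfe2l2 and Bach1 were lower with both, Osgin1 passed only the test of control corpses against macrophages alone, where it was lower, and Keap1 and Mafg passed only the test of STC1 corpses against macrophages alone. Gstt2 and Prdx2 passed none of the 3 tests. How many of all genes showed each of these patterns was not counted, and the 3 comparisons share libraries. Whether any of these counts is unusual is therefore not known.

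Among the regulators, Nfe2l2 and Bach1 fell with both kinds of corpse. Nfe2l2 (ENSMUSG00000015839.6, chromosome 2, 75675513 to 75704641) stood at 197, 189, 185 and 189.9 CPM in macrophages alone, 152.6, 149.4, 143 and 144.8 CPM with control corpses, and 150.8, 147.6, 152.5 and 153.5 CPM with STC1 corpses. Every library with corpses lay below every library of macrophages alone, and the corpse groups overlapped. The means were 190.1 ± 4.97, 147.4 ± 4.44 and 151.1 ± 2.59 CPM (SD, n = 4), so Nfe2l2 fell by 22.5% with control corpses and by 20.5% with STC1 corpses. The log2 fold changes were −0.37 ± 0.027 (adjusted p = 1.14e-12) and −0.33 ± 0.027 (adjusted p = 9.83e-12), and the difference between the corpse groups was 0.036 ± 0.027 (adjusted p = 0.512).

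Bach1 (ENSMUSG00000025612.5, chromosome 16, 87698945 to 87733346), the repressor of heme oxygenase and other targets, is given as log2 CPM, at 7.34, 7.37, 7.41 and 7.46 in macrophages alone, 7.10, 7.24, 7.17 and 7.21 with control corpses, and 7.19, 7.30, 7.23 and 7.24 with STC1 corpses. Its level was also lower in every library with corpses, with overlap between the corpse groups. The log2 fold changes were −0.22 ± 0.032 (adjusted p = 1.52e-06) and −0.16 ± 0.032 (adjusted p = 0.000135). Keap1 (ENSMUSG00000003308.15, chromosome 9, 21229730 to 21239361), the sensor that holds NRF2 down, was at 45.7, 48.5, 48.8 and 50.1 CPM in macrophages alone, 49.5, 51.2, 53.5 and 51.1 CPM with control corpses, and 49.96, 52.7, 55.7 and 56.7 CPM with STC1 corpses. Its ranges overlapped in every comparison. It passed the test with STC1 corpses (0.15 ± 0.039, adjusted p = 0.00175) and not with control corpses (0.087 ± 0.039, adjusted p = 0.0792). Mafg (ENSMUSG00000051510.13, chromosome 11, 120625117 to 120633600), a small MAF partner of NRF2 and BACH1, was at 160.0, 163, 167 and 160.2 CPM in macrophages alone, 167, 164, 173 and 169 CPM with control corpses, and 169, 170.4, 181 and 173 CPM with STC1 corpses. Its STC1 libraries lay above those of macrophages alone by a narrow margin, with a log2 fold change of 0.095 ± 0.027 (adjusted p = 0.00452). With control corpses the Mafg value was 0.050 ± 0.027 (adjusted p = 0.146), and it passed without control library 2 (0.073, adjusted p = 0.0439). Keap1 with control corpses passed without control library 1 or STC1 library 1, 2 or 3 (0.098 to 0.10, adjusted p = 0.029 to 0.0498). Calls with STC1 corpses against macrophages alone were lost with libraries 1 and 2 only for Bach1, Keap1 and Mafg. Their values there were −0.11 (adjusted p = 0.127), 0.13 (adjusted p = 0.105) and 0.074 (adjusted p = 0.216), and each passed with libraries 3 and 4 only. With all libraries, none of the 4 regulators passed between the corpse groups in edgeR's test, at an unadjusted p below 0.05, or in DESeq2. With libraries 3 and 4 of each group only, Nfe2l2 was higher with STC1 than with control corpses (0.090, adjusted p = 0.0309), and with libraries 1 and 2 only its value was −0.016 (adjusted p = 0.969).

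**Figure D3:**
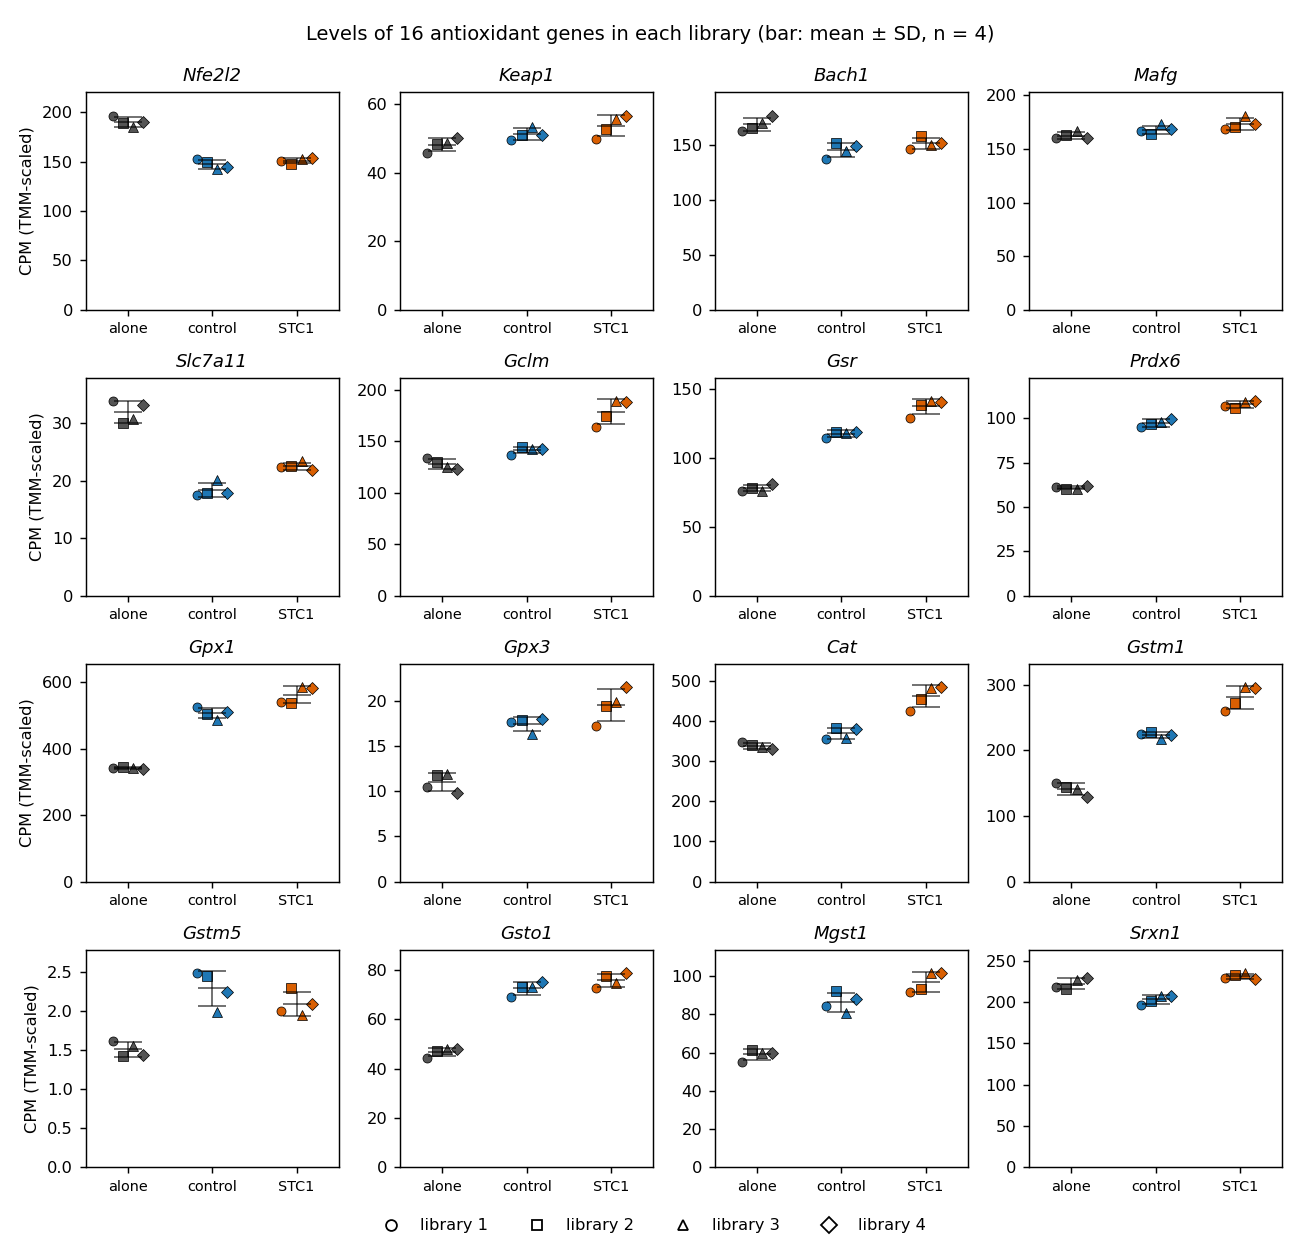
Level of 16 antioxidant genes in each of the 12 libraries, as TMM-scaled CPM on the y axis from 0, by group (macrophages alone, control corpses, STC1 corpses), with bars at the mean ± SD. Nfe2l2, Bach1 and Slc7a11 are lower with corpses, and Gsr, Prdx6, Gpx1, Gstm1 and Gsto1 are higher in every library with corpses.

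Transcripts of the cystine importer fell with corpses, while those of glutathione reductase and of the modifier subunit of glutathione synthesis rose. Slc7a11 (ENSMUSG00000027737.10, chromosome 3, 49892526 to 50443614), the light chain of the cystine and glutamate exchanger, stood at 33.8, 30.0, 30.8 and 33.3 CPM in macrophages alone, 17.5, 17.8, 20.2 and 17.9 CPM with control corpses, and 22.5, 22.6, 23.4 and 21.9 CPM with STC1 corpses. The 3 groups did not overlap, with macrophages alone highest and control corpses lowest. Slc7a11 was 1.74-fold lower with control corpses (log2 fold change −0.80 ± 0.048, adjusted p = 1.13e-14) and 1.42-fold lower with STC1 corpses (−0.50 ± 0.048, adjusted p = 3.01e-10). Between the corpse groups it was 1.23-fold higher with STC1 corpses (0.30 ± 0.050, adjusted p = 0.000376).

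Gsr (ENSMUSG00000031584.16, chromosome 8, 33652523 to 33698163), glutathione reductase, which restores glutathione with NADPH, stood at 76.4, 78.3, 76.3 and 81.4 CPM in macrophages alone, 114, 119, 119 and 119 CPM with control corpses, and 129, 139, 141 and 141 CPM with STC1 corpses. The 3 groups were again separate, in the order macrophages alone, control corpses, STC1 corpses. Gsr was 1.51-fold higher with control corpses (log2 fold change 0.59 ± 0.031, adjusted p = 3.53e-16) and 1.76-fold with STC1 corpses (0.82 ± 0.031, adjusted p = 1.11e-19), and the difference between them was 0.22 ± 0.030 (adjusted p = 1.75e-05).

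The subunits of glutamate-cysteine ligase, the rate-limiting enzyme of glutathione synthesis, did not move alike. Its modifier subunit Gclm, for which the sequence above shows a core, had means of 128 ± 5.07, 141 ± 3.09 and 179 ± 12.03 CPM (SD, n = 4). The STC1 libraries were at 163, 175, 189 and 188 CPM, above all libraries with control corpses, which lay between 137 and 144 CPM. Gclm had the largest difference between the corpse groups of the 33 genes, 0.34 ± 0.039 (adjusted p = 3.41e-05) as log2 fold change. Its catalytic subunit Gclc had means of 72.9 ± 1.24, 66.2 ± 1.32 and 71.7 ± 2.25 CPM. Gclc was lower with control corpses (−0.14 ± 0.030, adjusted p = 0.000483), and its value with STC1 corpses was −0.022 ± 0.031 (adjusted p = 0.598). Gss, glutathione synthetase, was low at 7.74 ± 0.527 CPM in macrophages alone and was higher with control corpses (0.36 ± 0.076, adjusted p = 0.000287) and with STC1 corpses (0.47 ± 0.077, adjusted p = 6.73e-06). Of these 5 genes, 4 were higher with STC1 than with control corpses, where 3.33% of all tested genes were. The exception was Gss, at 0.11 ± 0.074 (adjusted p = 0.441).

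In the thioredoxin system, which passes electrons from NADPH to the peroxiredoxins, 5 of 8 genes rose with each kind of corpse. Among all tested genes 19.7% rose with control corpses and 21.4% with STC1 corpses. Prdx6 (ENSMUSG00000026701.15, chromosome 1, 161240112 to 161251219), a peroxiredoxin that uses glutathione and reduces phospholipid peroxides, stood at 61.5, 60.3, 60.0 and 62.1 CPM in macrophages alone, 94.9, 96.6, 98.2 and 99.7 CPM with control corpses, and 107, 106, 109 and 109.5 CPM with STC1 corpses. The 3 groups did not overlap. Prdx6 was 1.60-fold higher with control corpses (0.68 ± 0.028, adjusted p = 1.79e-18) and 1.77-fold with STC1 corpses (0.82 ± 0.028, adjusted p = 1.10e-20). Between the corpse groups the log2 difference was 0.15 ± 0.027 (adjusted p = 0.00106).

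The thioredoxin-using enzymes moved less. Txnrd1, the cytosolic thioredoxin reductase, had means of 350.2 ± 2.14, 378 ± 10.95 and 429 ± 9.44 CPM in macrophages alone, with control corpses and with STC1 corpses. It was higher with each kind of corpse, and differed by 0.18 ± 0.025 (adjusted p = 1.75e-05) on the log2 scale between the corpse groups. Txn1, the thioredoxin it reduces, rose from 122 ± 3.50 CPM to 139 ± 1.35 and 144 ± 3.30 CPM, and the corpse groups were not separated by the test (adjusted p = 0.308). The mitochondrial peroxiredoxin Prdx3 was higher by 0.27 ± 0.040 and 0.28 ± 0.040 on the log2 scale with control and STC1 corpses, and Prdx5, found in mitochondria and peroxisomes, by 0.13 ± 0.031 and 0.23 ± 0.031.

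Srxn1 and Prdx1 took another course. Sulfiredoxin, the product of Srxn1, repairs over-oxidized 2-cysteine peroxiredoxins such as Prdx1. Srxn1 had means of 222 ± 6.38, 203 ± 5.57 and 231 ± 3.15 CPM, and Prdx1, the gene with the highest level per kilobase of exon in macrophages alone (654 CPM per kilobase), had 1989 ± 107, 1847 ± 34.7 and 2055 ± 53.5 CPM. Both were lower with control corpses than in macrophages alone, with log2 fold changes of −0.13 ± 0.026 (adjusted p = 0.000139) for Srxn1 and −0.11 ± 0.030 (adjusted p = 0.00446) for Prdx1, the latter with overlapping ranges. Both were higher with STC1 than with control corpses in every library, with 0.19 ± 0.026 (adjusted p = 3.30e-05) for Srxn1 and 0.15 ± 0.030 (adjusted p = 0.0018) for Prdx1. With STC1 corpses neither passed against macrophages alone (adjusted p = 0.0792 and 0.204). The Prdx1 results against macrophages alone rested on library 1 of that group. Without it the value with control corpses was −0.059 (adjusted p = 0.0899) and that with STC1 corpses 0.094 (adjusted p = 0.0062), and with libraries 3 and 4 only they were −0.044 (adjusted p = 0.18) and 0.082 (adjusted p = 0.00618). Srxn1 with STC1 corpses passed in 9 of 21 alternatives, 5 of them with 1 library left out (macrophage library 4, control library 2 or 3, or STC1 library 1 or 4, at 0.068 to 0.080, adjusted p = 0.0293 to 0.0461). Prdx2 was between 93.2 and 100.1 CPM in all 12 libraries and passed no test.

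All 6 of the peroxidases, catalase and superoxide dismutases were higher with each kind of corpse, and the libraries with corpses lay above those of macrophages alone for each of the 6. Among all tested genes 19.7% were higher with control corpses and 21.4% with STC1 corpses. How many of all genes had such separate ranges was not counted. Gpx1 (ENSMUSG00000063856.7, chromosome 9, 108338903 to 108340343), the main cytosolic glutathione peroxidase, stood at 341, 344, 342 and 339 CPM in macrophages alone, 525, 505, 487 and 509 CPM with control corpses, and 541, 537, 584 and 584 CPM with STC1 corpses. The 3 groups were separate, and per kilobase of exon Gpx1 was second to Prdx1 in macrophages alone (237 CPM per kilobase). It was 1.48-fold higher with control corpses (0.57 ± 0.028, adjusted p = 1.28e-16) and 1.64-fold with STC1 corpses (0.72 ± 0.028, adjusted p = 3.50e-19), and 0.15 ± 0.028 (adjusted p = 0.00134) higher on the log2 scale between the corpse groups.

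Gpx3 (ENSMUSG00000018339.11, chromosome 11, 54902453 to 54910377), the secreted plasma glutathione peroxidase, stood at 10.5, 11.8, 11.99 and 9.86 CPM in macrophages alone, 17.7, 17.9, 16.3 and 18 CPM with control corpses, and 17.3, 19.5, 20.0 and 21.6 CPM with STC1 corpses. Every library with corpses exceeded macrophages alone, and the corpse groups overlapped. Its log2 fold change was 0.66 ± 0.067 (adjusted p = 2.48e-09) with control and 0.83 ± 0.067 (adjusted p = 2.11e-11) with STC1 corpses, and 0.16 ± 0.063 (adjusted p = 0.135) between them. The last passed without STC1 library 1 (0.22, adjusted p = 0.0258) and with libraries 3 and 4 only (0.28, adjusted p = 0.0108). Cat, catalase, the peroxisomal enzyme that breaks down hydrogen peroxide, had means of 339 ± 7.36, 369 ± 14.2 and 462 ± 27.7 CPM. Its rise with control corpses was small (0.13 ± 0.036, adjusted p = 0.00803), and the 4 STC1 libraries, at 425, 456, 483 and 484 CPM, lay above all others. The Cat difference between the corpse groups was 0.32 ± 0.036 (adjusted p = 1.75e-05).

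Gpx4, which reduces lipid peroxides in membranes and so holds back ferroptosis, rose from 168 ± 3.18 CPM to 224 ± 2.17 CPM under control and 244 ± 6.21 CPM under STC1 corpses, 0.12 ± 0.025 (adjusted p = 0.00278) between them on the log2 scale. Sod2, the mitochondrial superoxide dismutase, rose from 62.3 ± 1.73 CPM to 79.2 ± 1.71 and 85.8 ± 3.08 CPM, with 0.12 ± 0.031 (adjusted p = 0.0229) between the corpse groups. The cytosolic enzyme Sod1 rose less, from 112 ± 3.20 CPM to 126 ± 1.83 and 134 ± 3.85 CPM. Its STC1 libraries lay above those with control corpses, and the difference of 0.086 ± 0.027 (adjusted p = 0.0615) did not pass the test.

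Of the 9 glutathione transferases, which join glutathione to electrophiles, 7 were tested and 6 rose with each kind of corpse. The shares of all tested genes that rose were 19.7% with control corpses and 21.4% with STC1 corpses. Gstm1 (ENSMUSG00000058135.12, chromosome 3, 108012255 to 108017973), a cytosolic mu-class enzyme, stood at 150.7, 144, 141 and 129 CPM in macrophages alone, 225, 228, 217 and 223 CPM with control corpses, and 260.0, 271, 296 and 294 CPM with STC1 corpses. The 3 groups did not overlap. Gstm1 was 1.59-fold higher with control corpses (0.66 ± 0.048, adjusted p = 6.02e-08) and 1.99-fold with STC1 corpses (0.99 ± 0.048, adjusted p = 5.86e-10), the largest rise of the 33 genes. The difference between the corpse groups was 0.33 ± 0.047 (adjusted p = 0.00134).

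Mgst1 (ENSMUSG00000008540.11, chromosome 6, 138140316 to 138156755), a transferase and peroxidase of the endoplasmic reticulum and mitochondrial membranes, stood at 54.9, 61.4, 59.9 and 60.0 CPM in macrophages alone, 84.5, 92.3, 80.7 and 87.9 CPM with control corpses, and 91.9, 93.4, 102 and 101 CPM with STC1 corpses. Every library with corpses exceeded macrophages alone, and the corpse groups overlapped through control library 2. Mgst1 was 1.64-fold higher with STC1 corpses (0.72 ± 0.044, adjusted p = 2.63e-11) and 1.46-fold with control corpses (0.55 ± 0.044, adjusted p = 2.45e-09). The value between the corpse groups, 0.17 ± 0.043 (adjusted p = 0.0233), lost its call without control library 1 or 3 or STC1 library 3 or 4, at an adjusted p of 0.0701 to 0.0819.

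Gsto1 (ENSMUSG00000025068.7, chromosome 19, 47854970 to 47864790), an omega-class enzyme with thioltransferase activity, stood at 44.5, 47.1, 48.0 and 47.8 CPM in macrophages alone, 69.0, 73.2, 73.0 and 75.2 CPM with control corpses, and 72.8, 77.4, 74.7 and 78.8 CPM with STC1 corpses. It was 1.55-fold higher with control corpses (0.63 ± 0.035, adjusted p = 1.73e-15) and 1.62-fold with STC1 corpses (0.70 ± 0.035, adjusted p = 1.36e-16), with overlap between the corpse groups. Gstm5 (ENSMUSG00000004032.10, chromosome 3, 107895821 to 107898686), another mu-class gene, stood at 1.62, 1.43, 1.55 and 1.44 CPM in macrophages alone, 2.49, 2.44, 1.99 and 2.25 CPM with control corpses, and 2.01, 2.30, 1.95 and 2.10 CPM with STC1 corpses. It was low, yet higher in every library with corpses, with log2 fold changes of 0.60 ± 0.13 (adjusted p = 0.000452) for control corpses and 0.47 ± 0.14 (adjusted p = 0.00565) for STC1 corpses. The Gstm5 call with control corpses was lost with libraries 3 and 4 only (0.50, adjusted p = 0.0547). That with STC1 corpses was lost with libraries 1 and 2 only (0.50, adjusted p = 0.0749) and with libraries 3 and 4 only (0.44, adjusted p = 0.0952). Gstz1, which also acts in tyrosine breakdown, and Mgst3 were higher by 0.21 ± 0.063 and 0.15 ± 0.045 on the log2 scale with control corpses and by 0.24 ± 0.063 and 0.19 ± 0.045 with STC1 corpses. Gstt2, at 3.71 ± 0.237, 4.31 ± 0.597 and 3.98 ± 0.282 CPM, passed no test.

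Gsta4 had 16 counts over the 12 libraries, and Gstp1 had 0 in each. Gstp1 has near-identical copies in the genome, and Gstp2 and Gstp3 were at 0 too. Reads that fit several places are held apart in the deposited files, at 5.74% to 7.03% of reads, so that the level of Gstp1 is not known from these counts. Counting by gene also leaves the split among the similar mu-class genes uncertain, and Prdx1, Txn1 and Gpx4 have processed copies in the genome. The strand setting of the counts is not given, and Prdx5 shares 19.1% of its exon length with Trmt112 on the opposite strand, Gstm5 13.9% with 4933431E20Rik, Keap1 10.9% with Gm16754, Gstz1 9.14% with Pomt2 and Gss 6.68% with Acss2.

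The remaining genes gave no common direction. Nqo1, a quinone reductase often used as a readout of NRF2, was low, with 3.90, 3.37, 2.63 and 3.96 CPM in macrophages alone. It was at 4.75 ± 0.163 CPM with control and 4.58 ± 0.613 CPM with STC1 corpses. It was higher with control corpses (0.46 ± 0.11, adjusted p = 0.00169) and with STC1 corpses (0.41 ± 0.12, adjusted p = 0.00494, with overlapping ranges), and between the corpse groups the value was −0.051 ± 0.11 (adjusted p = 0.858). Neither rise of Nqo1 passed with libraries 1 and 2 only (0.40, adjusted p = 0.0569, and 0.23, adjusted p = 0.312). Both passed with libraries 3 and 4 only (0.51, adjusted p = 0.00785, and 0.58, adjusted p = 0.00232). Abcc1, an exporter of glutathione conjugates, had means of 276 ± 6.70, 264 ± 5.11 and 280.0 ± 3.51 CPM, lower with control corpses (−0.067 ± 0.025, adjusted p = 0.028, with overlapping ranges) and higher with STC1 than with control corpses (0.087 ± 0.025, adjusted p = 0.0303). The first of these lost its call in 14 of 21 alternatives and the second in 10 of 21. Osgin1, a growth inhibitor induced by oxidative stress, was lower with control corpses (−0.22 ± 0.053, adjusted p = 0.00107) and had −0.062 ± 0.053 (adjusted p = 0.374) with STC1 corpses.

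By role, the genes higher with STC1 than with control corpses were 4 of 5 in cystine import and glutathione synthesis (Slc7a11, Gclc, Gclm and Gsr), 5 of 8 in the thioredoxin system (Txnrd1, Srxn1, Prdx1, Prdx5 and Prdx6) and 4 of 6 of the peroxidases and dismutases (Gpx1, Gpx4, Cat and Sod2). They were 2 of 7 transferases (Gstm1 and Mgst1), 1 of the other 3 genes (Abcc1) and 0 of 4 regulators. Among all tested genes 3.33% were higher in this comparison, so that 0 of 4 lies near the share of all genes. Of the 16, 14 had STC1 libraries that all lay above the control corpse libraries, and Prdx5 and Mgst1 overlapped. The 16 were picked by the test on these same libraries, so separate ranges add no support of their own. The share of all genes with separate ranges was not counted. The difference was 6.23% for Abcc1 at the low end and 26.5% for Gclm at the high end.

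**Figure D4:**
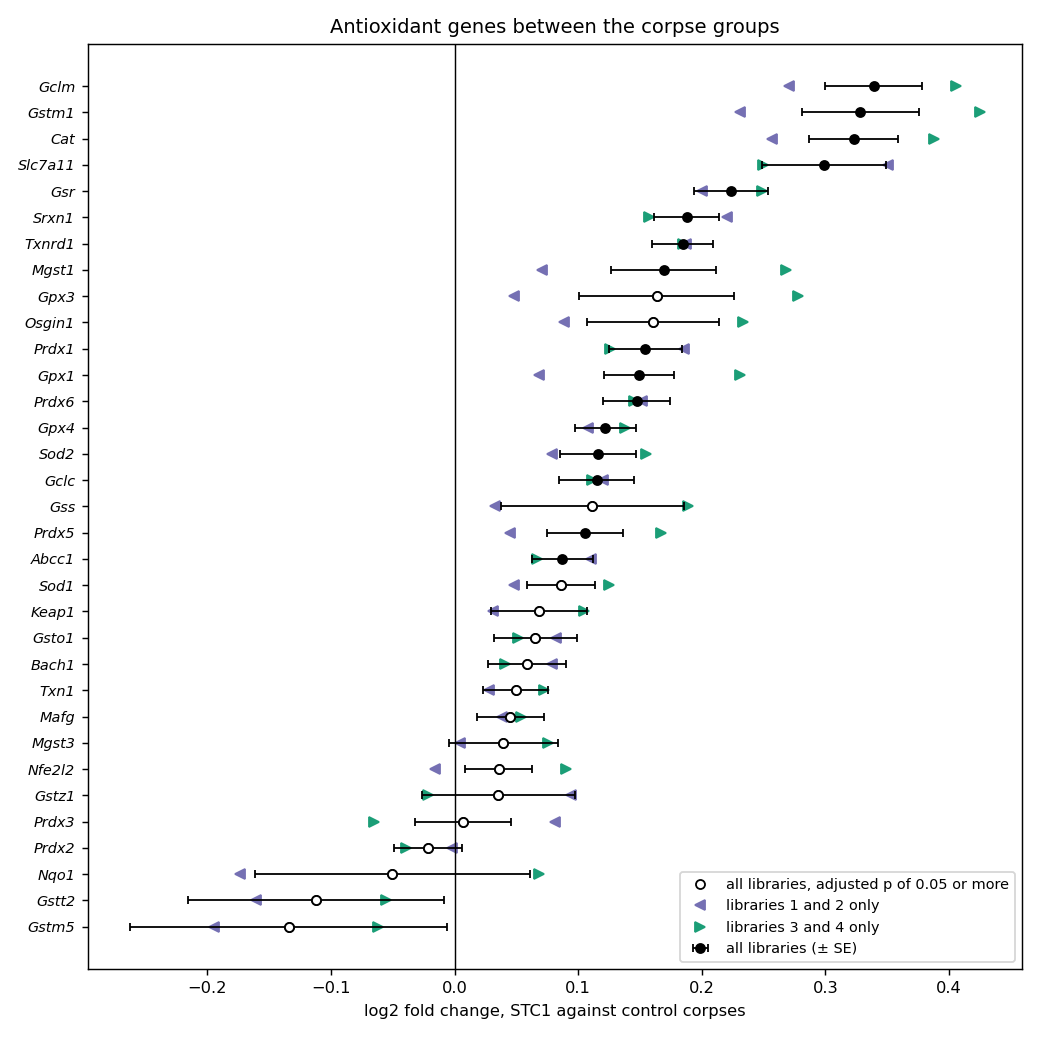
Difference between STC1 and control corpses for the 33 tested genes, as log2 fold change on the x axis: circles are all libraries ± SE, filled where the adjusted p is below 0.05, and triangles are libraries 1 and 2 only and libraries 3 and 4 only of each group. Gclm, Gstm1 and Cat lead in all libraries (0.34, 0.33 and 0.32). All 16 filled genes lie above 0 with either set of libraries, which are parts of the libraries that picked them.

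The size of this difference varied with the libraries used. With libraries 1 and 2 of each group only, 5 genes were called higher with STC1 corpses (Cat, Gclm, Gstm1, Slc7a11 and Srxn1), where 0.164% of all genes were. With libraries 3 and 4 only, 19 were called, including 15 of the 16, where 7.83% of all genes were. All 16 were higher with STC1 corpses in either set. They were picked by the test on these same libraries, so this shared direction adds no support of its own. The log2 difference was 0.27 with libraries 1 and 2 and 0.41 with libraries 3 and 4 for Gclm, 0.26 and 0.39 for Cat, and 0.23 and 0.43 for Gstm1. It differed more for Gpx1 (0.068 and 0.23), Mgst1 (0.070 and 0.27) and Prdx5 (0.045 and 0.17). For Slc7a11 (0.35 and 0.25), Srxn1 (0.22 and 0.16) and Prdx1 (0.19 and 0.13) the first value was the larger. The differences between the sets of libraries were not themselves tested.

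Within the STC1 group, Gclm, Cat, Gstm1, Gpx1 and Mgst1 were each higher in libraries 3 and 4 than in libraries 1 and 2, the same libraries with more reads not aligned. Melanocyte markers were lower with STC1 than with control corpses while these genes were higher. The part of the unaligned reads and of the melanoma RNA in the differences was not tested.

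**Figure D5:**
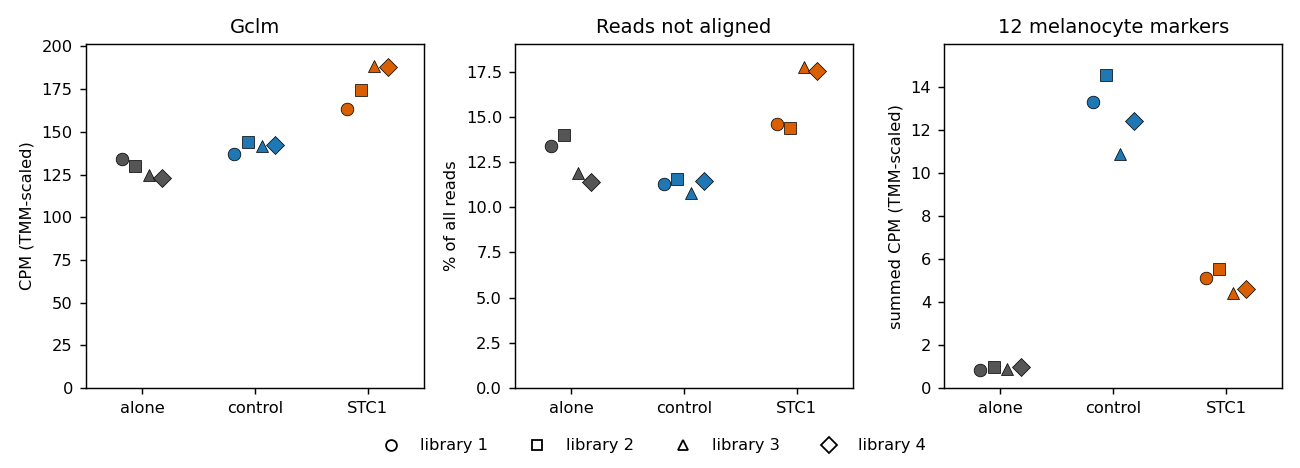
Level of Gclm (TMM-scaled CPM), share of reads not aligned (%) and summed level of 12 melanocyte markers (TMM-scaled CPM) in each of the 12 libraries, by group, with the marker shape giving the library number. Gclm and the unaligned share are highest in STC1 libraries 3 and 4 (188 and 189 CPM, 17.5% and 17.8%), and the melanocyte sum is highest with control corpses (10.9 to 14.5 CPM).

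Genes of the same pathways outside the 35 were counted from lists of 99 genes, of which 84 were tested. With control corpses 26 were higher and 20 lower than in macrophages alone, with STC1 corpses 32 and 16, and between the corpse groups 18 were higher and 2 lower with STC1. The shares of all tested genes were 19.7% higher and 20.5% lower, 21.4% and 22.4%, and 3.33% and 2.12% in these comparisons, and the counts of lower genes lie near them. The shorter lists that follow are counts against the same shares. After Gsta3 the largest rise was that of Hmox1, heme oxygenase 1, which BACH1 represses and NRF2 induces. Hmox1 went from 546 ± 10.6 CPM to 1230 ± 38.1 CPM under control and 1528 ± 43.8 CPM under STC1 corpses, 2.25-fold and 2.80-fold, and 0.31 ± 0.026 (adjusted p = 4.22e-09) on the log2 scale between them. The heme transporter Slc48a1 and the ferritin heavy chain Fth1 were 1.72-fold and 1.53-fold higher with STC1 corpses than in macrophages alone.

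Of 9 other transferases tested, 3 were higher and 1 lower with each kind of corpse. Gsta3 rose from 3.76 ± 0.236 CPM to 9.29 ± 0.544 and 12.7 ± 2.04 CPM, with 0.45 ± 0.086 (adjusted p = 0.00176) between the corpse groups, and Gstm2 from 9.69 ± 0.521 CPM to 15.3 ± 0.683 and 17.7 ± 1.097 CPM. Of 9 genes that supply NADPH, the electron source of Gsr and Txnrd1, 3 were higher and 3 lower with control corpses, 4 and 2 with STC1 corpses, and 4 were higher with STC1 than with control corpses. Those 4 were G6pdx, Pgd, Tkt and Taldo1, named after their values were seen. They are enzymes of the pentose phosphate pathway, as is Pgls on the same list, which did not pass (0.065 ± 0.033, adjusted p = 0.283). Pgd, for example, had 502 ± 5.35, 499 ± 8.43 and 593 ± 14.6 CPM in the 3 groups. Me1, the cytosolic malic enzyme, was 1.70-fold and 1.97-fold higher with control and STC1 corpses than in macrophages alone.

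Of 18 other thioredoxin and glutaredoxin genes, 3 were higher and 6 lower with control corpses, 5 and 5 with STC1 corpses, and 1 was higher between them. Msrb1, a methionine sulfoxide reductase, rose from 73.0 ± 0.959 CPM to 142 ± 10.6 CPM with control corpses and was 2.08-fold higher with STC1 corpses than in macrophages alone. Txnip, which binds and inhibits thioredoxin, fell from 208 ± 6.35 CPM to 134 ± 5.98 and 141 ± 2.06 CPM. Sesn1, a stress-induced sestrin, fell from 143 ± 3.53 CPM to 99.5 ± 5.12 and 95.2 ± 3.19 CPM. The 5 of 18 in each direction with STC1 corpses are close to the shares of all genes. Of 22 other NRF2 targets, 10 were higher and 7 lower with control corpses, 12 and 6 with STC1 corpses, and 7 and 1 between them. Aifm2, a reductase that holds back ferroptosis, was 1.60-fold and 1.81-fold higher with control and STC1 corpses, the exporter Abcc3 1.64-fold and 1.74-fold, and Pir 1.58-fold and 1.56-fold. Ephx1, the microsomal epoxide hydrolase, was among those that fell, from 24.9 ± 1.90 CPM to 14.9 ± 1.09 and 15.1 ± 0.361 CPM. The 2 genes lower with STC1 than with control corpses were Hpgds (−0.12 ± 0.027, adjusted p = 0.00828), a prostaglandin D synthase, and the aldo-keto reductase Akr1b10 (−0.15 ± 0.039, adjusted p = 0.0247), also named after their values were seen. Of 11 other genes of glutathione turnover, 4 were higher and 3 lower with control corpses, 4 and 2 with STC1 corpses, and 2 were higher between them. The deepest called fall of a pathway gene above 2 CPM was on this list. It was that of Dpep2, a membrane dipeptidase, from 5.93 ± 0.268 CPM to 2.23 ± 0.186 and 2.19 ± 0.214 CPM (−1.41 ± 0.10, adjusted p = 1.28e-12, and −1.43 ± 0.11, adjusted p = 9.68e-13). The name Dpep2 matched 2 gene identifiers, and these values are of the one with more counts. Of 12 partners and relatives of NRF2 and KEAP1, 3 were higher with control corpses, 4 with STC1 corpses and 2 between the corpse groups, and 0 were lower. Of 6 other peroxidases and superoxide dismutases, 3 were tested, and 0 were higher and 0 lower in each comparison.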

How the data were processed

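RNA was sequenced from 12 libraries of mouse bone marrow-derived macrophages in 3 groups of 4, grouped by the sample titles. For each library the authors deposited unnormalized read counts by gene. The tools HISAT2, HTSeq and DESeq2 and the builds mm10 and GRCm38 are named, without versions, per the submitters' processing notes. The annotation release and the strand setting are not given in the sources used here. Lines of the count files that name no gene (41.0% to 46.6% of reads) entered neither library sizes nor tests.

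Symbols and GRCm38 coordinates were matched from GENCODE M21 by identifier without version (54723 of 55604 genes had a symbol). Tests used edgeR 4.0.16 in R 4.3.3, with filterByExpr (minimum count 10, minimum total 15), TMM factors and robust quasi-likelihood fits on all 12 libraries with 1 mean per group. Tests were two-sided with Benjamini-Hochberg adjustment over 16406 genes and a threshold of 0.05, and most calls lie below 1.5-fold. CPM are TMM-scaled, and CPM per kilobase divide by the exon length of the gene. The common biological coefficient of variation was 4.53%.

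All 35 genes are accounted for. Every library is given for the 4 regulators and for each gene with a call of at least 1.5-fold. Pathway genes outside the 35 could be named where called, at least 1.5-fold and at least 2 CPM on average, and others are said to be named after their values were seen. The genes and lists were chosen with earlier results of these data known. Alternatives were RLE and upper-quartile scaling, no count filter, DESeq2 1.42.0, the 2 groups compared only, a replicate block, a term for libraries 1 and 2 against 3 and 4, each of those sets alone, and each library left out. Following single genes through these for the 20 tested genes whose libraries are not all given was added after seeing the data.

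The scripts were tested on simulated counts in which 200 of 16406 genes were changed. Between the corpse groups 38.8% of 1.2-fold, 62.7% of 1.5-fold and 90.9% of 2-fold changes were called, with 13 false calls. Libraries of the same group differed beyond sampling noise (chi-square per degree of freedom 2.73 to 17.1), and each counts as 1 replicate. The p-values measure the spread between these libraries. Promoter windows were read from a RefSeq table of build GRCm38.p6.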

Additional observations from a re-analysis of the deposited data

Results flagged for a closer look

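A library stood apart from the other 3 of its group, by the gap to its nearest neighbour relative to the group's range, in 5 of 99 group values checked. Chance flags about 1 in 20 groups. Slc7a11 was highest in control corpse library 3, at 20.2 CPM. Gsr was lowest in control corpse library 1, at 114 CPM, and Gpx3 in control corpse library 3, at 16.3 CPM. In the STC1 group Gstz1 was lowest in library 4, at 11.6 CPM, and Osgin1 in library 1, at 19.3 CPM.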

How the results depend on the processing

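The number of genes higher with STC1 than with control corpses, 16 with all libraries, fell to 5 with libraries 1 and 2 only and was 19 with libraries 3 and 4 only. It was 14 to 17 under the other settings and 11 to 17 with 1 library left out, and 0 were lower under each of these settings. Against macrophages alone, 15 to 22 genes were higher with control corpses and 18 to 24 with STC1 corpses over all settings, and 6 to 8 and 2 to 3 were lower. At least 1.5-fold were 6 to 9 and 7 to 8. Of 2078 alternative values of the 33 tested genes 0 reversed, 71 lost a call and 29 gained one, and 43 of 71 calls held throughout. A sign change counted as reversed only where at least 1 of the 2 fits made a call. Other sign changes counted as unchanged. Nfe2l2 between the corpse groups, for example, went from 0.036 to −0.016 with libraries 1 and 2 only. Libraries 1 and 2 only gave 25 of the 71 losses. Calls lost with 1 library left out were, between the corpse groups, Gclc without control library 2 or 3 or STC1 library 3 (0.098 to 0.11, adjusted p = 0.0603 to 0.111), Sod2 without control library 1 or 3 or STC1 library 3 or 4 (0.098 to 0.12, adjusted p = 0.0513 to 0.119), Prdx5 without control library 1, 3 or 4 or STC1 library 3 or 4 (0.085 to 0.11, adjusted p = 0.0731 to 0.183) and Abcc1 without control library 1, 2 or 4 or STC1 library 1 or 3 (0.078 to 0.092, adjusted p = 0.0643 to 0.0782), besides Mgst1. With control corpses they were Mgst3 without macrophage library 3 (0.11, adjusted p = 0.0562), Prdx1 as given above, and Abcc1 without any 1 of 10 libraries (−0.066 to −0.047, adjusted p = 0.0514 to 0.163). Between the corpse groups Sod1 gained a call without STC1 library 2 (0.098, adjusted p = 0.0448) and Osgin1 without STC1 library 1 (0.22, adjusted p = 0.00331). The same-numbered libraries of different groups do not pair, since their deviations correlated at −0.043 to 0.091 over 12 pairs. A fit with the number as a replicate block called 22, 24 and 16 genes higher in the 3 comparisons. Depth limits Gsta4, which had 16 counts in all and was not tested.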
